A study of Mus musculus with 18 samples.

Results

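Microglia, the resident phagocytes of the brain, carry receptors for the constant (Fc) part of antibodies, and the transcripts of 6 such genes were followed through the transcriptomes of sorted microglia: Fcgr1, Fcgr2b, Fcgr3, Fcgr4, Fcer1g and Fcgrt. They were picked by name, as the Fc gamma receptors of the mouse, their shared signalling chain and the neonatal Fc receptor, and are 6 of the 22428 genes in the deposited table. All 6 had reads, and 5 of the 6 had reads in each of the 18 libraries. The cells came from the medial prefrontal cortex (mPFC) at postnatal day 51 and had been gated as CD11b+/CD45+/P2ry12+. The 4 groups were 16p11dup-THC (mice with a duplication matching the human 16p11.2 copy number variant that were given delta-9-tetrahydrocannabinol, THC; n = 4), 16p11dup-Veh (the same genotype with vehicle; n = 4), WT-THC (wild type with THC; n = 4) and WT-Veh (wild type with vehicle; n = 6). THC was injected under the skin at 8 mg/kg each day from postnatal day 30 to 51, and all mice were on the C57BL6/J background. The 16p11dup mice carry the duplication in every cell, not in microglia alone. The design asks whether adolescent THC and the duplication, alone or combined, change the microglial transcriptome. No source says that each library was 1 mouse or gives the sex of these mice, so the p-values measure the spread between these libraries. The labels give no replicate numbers, and those below only name libraries within a group.

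As background, Fc receptors let a cell sense antibody-coated material. Fcgr1 (CD64) encodes the receptor with high affinity for IgG, Fcgr3 (CD16) and Fcgr4 (CD16-2) encode activating receptors of lower affinity, and all of them need the gamma chain encoded by Fcer1g, whose activation motif recruits Src-family kinases and Syk. Fcgr2b (CD32) encodes the inhibitory receptor, which carries an inhibitory motif and recruits the phosphatase SHIP1 (Inpp5d). Fcgrt encodes the neonatal Fc receptor, which pairs with beta-2-microglobulin (B2m) and recycles IgG inside cells rather than signalling for engulfment. Before staining for the sort, the cells had been incubated with an antibody against CD16/CD32, which binds the products of Fcgr3 and Fcgr2b.

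The libraries held 7045444 to 15459286 reads assigned to genes, and 72.5% to 81.8% of reads had mapped. Sequencing was paired-end, and the study does not state whether an assigned count stands for a read or a pair. Between 63.4% and 69.2% of mapped reads touched introns. The summed level of 11 microglial markers (P2ry12, Tmem119, Cx3cr1 and others) was 19648 to 38660 CPM. CPM are the reads of a gene per 1000000 reads of the scaled library size. That size is the reads assigned to genes times the scaling factor of the library (0.735 to 1.305). Markers of natural killer cells, which also carry Fcgr3 and Fcer1g, were at 0 in all libraries (4 of 4 genes). The 7 border macrophage markers summed to 0 to 183 CPM, the 4 monocyte markers to 0 to 31.6 CPM with Ly6c2 and Plac8 at 0 throughout, and the 5 neutrophil markers measured to 0 to 262 CPM with a median of 0.102 CPM. The 3 B cell markers measured summed to 0 to 47.4 CPM, with Ms4a1 at 0 throughout. The genotype labels could not be read from expression: 21 genes of the duplicated segment summed to 1204 to 1723 CPM in 16p11dup-THC, 956 to 4603 CPM in 16p11dup-Veh, 1114 to 2196 CPM in WT-THC and 1117 to 2586 CPM in WT-Veh. Their median log2 fold change was 0.17 in 16p11dup-Veh against WT-Veh and -0.074 in 16p11dup-THC against WT-THC. Every genotype below is therefore the one on the label.

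4 of the 6 genes lie together on chromosome 1 of GRCm38, within 276 kb. Fcgr2b is at chr1:170958617-170976547 on the minus strand, Fcgr4 at chr1:171018920-171029761 on the plus strand, Fcgr3 at chr1:171051174-171064935 on the minus strand and Fcer1g at chr1:171229572-171234365 on the minus strand. Fcgr1 lies at chr3:96282909-96293969 on the minus strand. Fcgrt lies at chr7:45092990-45103851 on the minus strand. Reads were counted without strand, and antisense genes overlap the spans of Fcgr2b (Gm38204) and Fcgrt (Gm45669). Whether their exons overlap those of the 2 receptor genes was not examined, so it is open whether any reads could be confused.

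Fcgr2b and Fcgr3 are close copies of each other over the part that encodes their extracellular domains, and this bears on how their reads were counted. Their coding sequences aligned over 754 bases, of which 665 (88.2%) were identical. The identity was 99% between bases 301 and 400 of the Fcgr3 coding sequence and 100% between bases 401 and 500, whereas it was 67.8% over the first 100 bases. The most alike stretch covers 243 bases with a single difference, and its 2 identical runs are 129 and 113 bases long. No other pair of the 6 genes shared an identical coding run of more than 14 bases. The stretch is shown with its flanks, 300 bases from exons 3 and 4 of each gene after splicing, from the GENCODE M21 transcripts on GRCm38 (Fcgr2b-201, chr1:170966548-170968126, minus strand, and Fcgr3-201, chr1:171054041-171057837, minus strand). Capitals mark the 8 bases at which the genes differ.
Fcgr2b: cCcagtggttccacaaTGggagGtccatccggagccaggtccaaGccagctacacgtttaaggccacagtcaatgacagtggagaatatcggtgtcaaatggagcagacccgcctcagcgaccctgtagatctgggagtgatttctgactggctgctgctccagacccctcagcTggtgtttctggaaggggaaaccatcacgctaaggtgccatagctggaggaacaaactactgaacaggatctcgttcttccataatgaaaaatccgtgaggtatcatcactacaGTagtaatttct
Fcgr3: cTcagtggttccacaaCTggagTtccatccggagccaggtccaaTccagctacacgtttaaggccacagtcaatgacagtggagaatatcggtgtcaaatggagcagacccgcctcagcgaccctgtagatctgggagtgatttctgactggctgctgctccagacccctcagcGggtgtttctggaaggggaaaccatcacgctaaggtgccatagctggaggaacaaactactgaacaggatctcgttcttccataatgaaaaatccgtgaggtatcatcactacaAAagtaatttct
The bases between the capitals do not tell the genes apart. At 150 bases, the length of the reads, 0 of the 1733 words in the Fcgr3 transcripts occur unchanged in Fcgr2b transcripts, and 96 (5.54%) do with 1 mismatch. A single read of full length thus covers at least 1 difference, whereas a shorter fragment need not. The reads came in pairs, and how both reads of a pair together fit the genes was not examined. Of all the 50-base words in the Fcgr3 transcripts, 9.58% also occur in Fcgr2b transcripts, and 2.92% of the Fcgr2b words occur in Fcgr3.

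**Figure D1:**
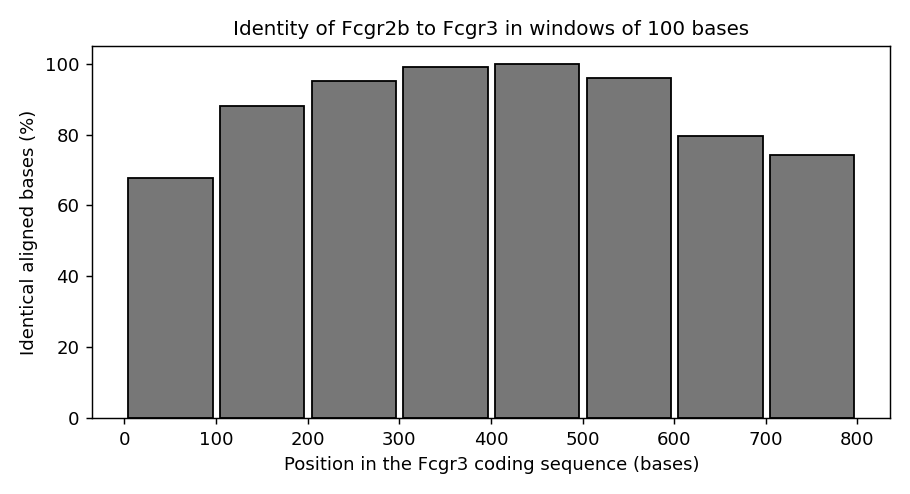
Identity of the Fcgr2b to the Fcgr3 coding sequence, as the percentage of identical aligned bases (vertical axis) in windows of 100 bases along the Fcgr3 coding sequence (horizontal axis). The bars reach 99% and 100% in the windows from base 301 to 500 and are lowest, at 67.8%, in the first window.

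The division of reads was visible in the counts. Reads had been assigned by RSEM, which splits a read that fits several genes, and the counts recovered from the deposited values were not whole for Fcgr2b and Fcgr3 in the same 3 libraries. In 16p11dup-Veh replicate 3 they were 1421.63 and 3019.37 reads, in WT-THC replicate 3 they were 2600.12 and 6772.88 reads, and in WT-Veh replicate 2 they were 249.04 and 3706.96 reads. In each of these libraries the counts of the 2 genes summed to a whole number, 4441, 9373 and 3956. The other 4 genes had whole counts in all 18 libraries (within 0.015 of a whole number). The comparisons of Fcgr2b and Fcgr3 were therefore repeated without these 3 libraries and with the reads of the 2 genes summed, both added after the data had been seen.

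Levels of different genes were set side by side as CPM per kb of exon. Fcer1g was the most abundant, at 1209 ± 426 CPM per kb (SD, n = 18), with Fcgr3 next at 405 ± 173. Fcgr1 followed at 59.1 ± 23.1, Fcgr2b at 30.2 ± 15.5, Fcgrt at 21.8 ± 19.2 and Fcgr4 last at 2.68 ± 4.02 CPM per kb. Fcer1g exceeded Fcgr3, and Fcgr3 exceeded each of the remaining receptors, in 18 of 18 libraries. Fcgr1 exceeded Fcgr2b in 16 of 18 libraries, but in 12 of 18 when the longest transcript replaced the union of exons, which raised Fcgr2b to 49.4 ± 25.3 CPM per kb. Fcgr2b exceeded Fcgrt in 11 of 18 libraries, so these neighbours in the order were not separated beyond their spread. Among the 13964 genes with a read in any library, Fcer1g ranked 76 and Fcgr3 ranked 144 by mean log2 CPM without regard to length. Fcgr2b ranked 1039, Fcgr1 1050, Fcgrt 3871 and Fcgr4 9014.

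**Figure D2:**
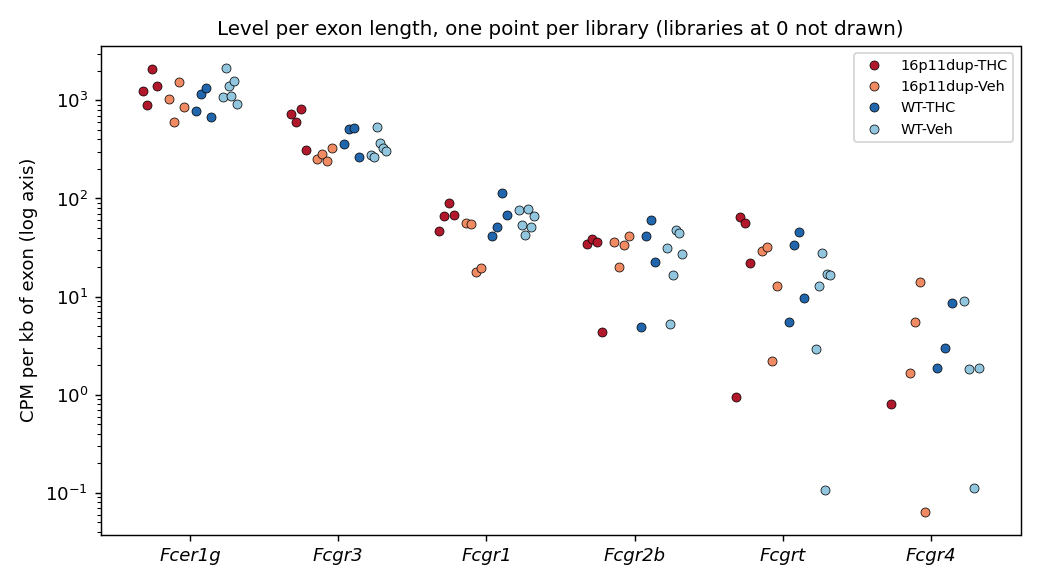
Level of each gene per exon length, in CPM per kb on a log axis, with a point for each library coloured by group (16p11dup-THC, 16p11dup-Veh, WT-THC, WT-Veh from left to right within a gene). Fcer1g and Fcgr3 form separate bands at the top, Fcgr1, Fcgr2b and Fcgrt overlap, and the 6 libraries in which Fcgr4 was at 0 are not drawn.

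Of the 6 members, Fcgr3 had the smallest unadjusted p in limma, in 16p11dup-THC against 16p11dup-Veh. It was at 1266, 1049, 1421 and 542 CPM in the 16p11dup-THC libraries, against 439, 488, 416 and 571 CPM in the 16p11dup-Veh libraries. 3 of the 4 16p11dup-THC libraries lay above all 16p11dup-Veh libraries, and the remaining one (replicate 4) lay among them. WT-THC libraries were at 625.3, 879, 899.7 and 459.9 CPM. WT-Veh libraries ranged from 456 to 928 CPM with a median of 548 CPM. The highest WT-Veh library was below the same 3 16p11dup-THC libraries.

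The fitted log2 fold change of Fcgr3 was 1.04 (SE 0.30) in 16p11dup-THC against 16p11dup-Veh and 0.79 (SE 0.28) in 16p11dup-THC against WT-Veh. In 16p11dup-THC against WT-THC it was 0.65 (SE 0.31), in WT-THC against WT-Veh 0.13 (SE 0.27), and in 16p11dup-Veh against WT-Veh it was -0.25 (SE 0.27). Without WT-THC replicate 4 the difference in 16p11dup-THC against WT-THC was 0.42. None passed the false discovery rate (FDR) of 0.10 of limma over all 22428 genes: the adjusted p was 0.835, 0.814, 0.967, 0.819 and 0.982 in this order. Unadjusted, p in limma was 0.0037 for 16p11dup-THC against 16p11dup-Veh and 0.0123 for 16p11dup-THC against WT-Veh. Without a model, the exact two-sided permutation test gave p = 0.0571 for 16p11dup-THC against 16p11dup-Veh, where 70 regroupings allow no p below 0.0286, and p = 0.0476 for 16p11dup-THC against WT-Veh. These tests had been set for members with an unadjusted p under 0.05 in limma, which favours small values. When the exact test was run for all 30 combinations of a member and a comparison of 2 groups, added after the data had been seen, both had an adjusted p of 0.493 (Benjamini-Hochberg), the lowest of the 30. These comparisons share libraries and are not independent of each other.

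With the 5 surrogate variables of the study in the model, the fitted difference between 16p11dup-THC and 16p11dup-Veh was 0.58 on the log2 scale (unadjusted p = 0.0988 in limma), and that between 16p11dup-THC and WT-Veh was 0.31 (unadjusted p = 0.295 in limma). With the reads of Fcgr2b and Fcgr3 summed it was 0.74 (SE 0.32) for 16p11dup-THC against 16p11dup-Veh and 0.60 (SE 0.29) for 16p11dup-THC against WT-Veh, while without the 3 libraries with divided counts it was 1.04 and 0.78 for Fcgr3 alone. The summed level of 9 genes induced by tissue dissociation was 124 to 295 CPM in 16p11dup-THC and 151 to 468 CPM in 16p11dup-Veh, and that of the microglial markers was 24051 to 38660 CPM in 16p11dup-THC and 21985 to 32820 CPM in 16p11dup-Veh. Their part in the Fcgr3 values was not tested. In bulk samples a difference in the share of cells that express a gene and a difference in RNA per cell cannot be told apart.

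**Figure D3:**
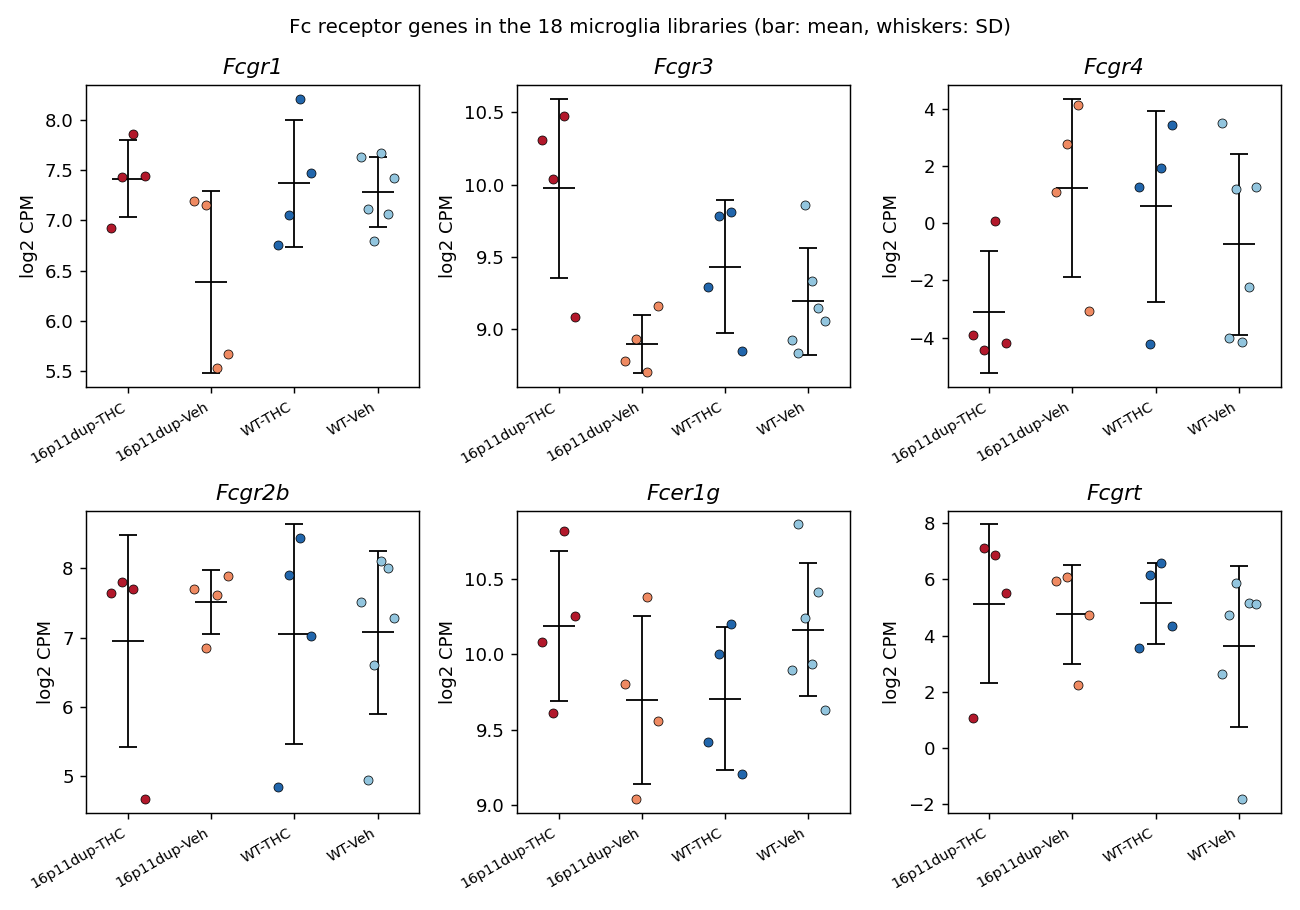
Deposited log2 CPM (vertical axes, a scale per panel) of the 6 genes in the 18 libraries, grouped as 16p11dup-THC, 16p11dup-Veh, WT-THC and WT-Veh. Points are libraries, the bar is the mean and the whiskers the SD. For Fcgr3, 3 of the 4 16p11dup-THC libraries lie above all others, and for Fcgr2b a single library lies far below the rest in each of 16p11dup-THC, WT-THC and WT-Veh.

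Fcgr1, the high-affinity receptor, was lowest in 2 of the 16p11dup-Veh libraries. It was at 121, 172, 232 and 173.8 CPM in 16p11dup-THC, against 146, 142, 46.3 and 50.9 CPM in 16p11dup-Veh. It was at 108, 132, 296 and 177 CPM in WT-THC, and ranged from 111 to 204 CPM with a median of 155 CPM in WT-Veh. Replicates 3 and 4 of 16p11dup-Veh were below every other library of the study, whereas replicates 1 and 2 lay within the range of WT-Veh. The log2 fold change was 0.90 (SE 0.41; unadjusted p = 0.0426, adjusted p = 0.835 in limma) in 16p11dup-THC against 16p11dup-Veh and -0.82 (SE 0.36; unadjusted p = 0.0395, adjusted p = 0.982 in limma) in 16p11dup-Veh against WT-Veh. The exact permutation test gave p = 0.0857 for 16p11dup-THC against 16p11dup-Veh and p = 0.105 for 16p11dup-Veh against WT-Veh, and both became 0.493 after adjustment over the 30 tests. Without 16p11dup-Veh replicate 4 the log2 fold change was 0.54 in 16p11dup-THC against 16p11dup-Veh and -0.47 in 16p11dup-Veh against WT-Veh. In 16p11dup-THC against WT-THC and in WT-THC against WT-Veh, Fcgr1 differed by 0.045 (SE 0.41) and 0.042 (SE 0.36) on the log2 scale.

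Fcgr4 was close to the limit of detection. It had 0, 0, 11 and 0 reads in the 16p11dup-THC libraries, against 18, 101, 127 and 1 reads in the 16p11dup-Veh libraries. WT-THC libraries had 32, 0, 28 and 155 reads, and WT-Veh libraries had 88, 0, 24, 0, 1 and 46 reads. 10 of the 18 libraries held more than 3 reads, and every group had at least 1 library with 0 or 1 read. The groups overlapped in each comparison, but 16p11dup-THC overlapped 16p11dup-Veh only through its library with 11 reads. For the 0s, the limit that a count of 0 allows is 3 reads in that library, and it covers counting error only. The unadjusted p of limma was 0.0754 for 16p11dup-THC against 16p11dup-Veh (adjusted p = 0.835 in limma), and the exact permutation test gave p = 0.0571 (0.493 adjusted over the 30 tests). The size of the fitted fold change depends on the value added to a count of 0 and is not read here.

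Fcgr2b, the inhibitory receptor, varied more between libraries than between groups. It was at 199, 222, 208 and 25.3 CPM in 16p11dup-THC, 207, 115, 196 and 238 CPM in 16p11dup-Veh, and 28.6, 239.8, 345 and 129 CPM in WT-THC. In WT-Veh it ranged from 30.7 to 276 CPM with a median of 169 CPM. 3 libraries (16p11dup-THC replicate 4, WT-THC replicate 1 and WT-Veh replicate 2) lay between 25.3 and 30.7 CPM, and the other 15 lay between 96.9 and 345 CPM with none in between. Its SD within groups was 1.26 on the log2 scale, larger than for 83.5% of the 801 genes with a mean within 0.5 of its own. The log2 fold change was -0.76 (SE 0.83) in 16p11dup-THC against 16p11dup-Veh, where the lowest library decided it: without 16p11dup-THC replicate 4 it was -0.004. In the other comparisons of 2 groups it lay between -0.30 and 0.46 (SE 0.73 to 0.83), and in no comparison of 2 groups was its unadjusted p in limma below 0.371. The 0.46 was that of 16p11dup-Veh against WT-Veh, which lay between 0.061 and 0.74 over the alternative fits. Its unadjusted p in limma was 0.536, and 0.938 without the 3 libraries with divided counts.

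Fcer1g, the chain that the activating receptors share, was abundant in every library. It was at 1082, 783, 1805 and 1219.8 CPM in 16p11dup-THC, 894, 526, 1329 and 754 CPM in 16p11dup-Veh, and 684, 1025, 1179 and 589 CPM in WT-THC. In WT-Veh it ranged from 794 to 1860.1 CPM with a median of 1094 CPM. All groups overlapped. The log2 fold change was 0.49 (SE 0.29) in 16p11dup-THC against 16p11dup-Veh, -0.37 (SE 0.26) in WT-THC against WT-Veh and -0.47 (SE 0.26) in 16p11dup-Veh against WT-Veh, with unadjusted p of 0.114, 0.180 and 0.0931 in limma. In 16p11dup-THC against WT-Veh it was 0.025 (SE 0.27). Single libraries carried much of these differences: without WT-THC replicate 4 the value in WT-THC against WT-Veh was -0.19, and without 16p11dup-Veh replicate 2 it was 0.22 in 16p11dup-THC against 16p11dup-Veh and -0.19 in 16p11dup-Veh against WT-Veh. Without 16p11dup-THC replicate 3 it was 0.29 in 16p11dup-THC against 16p11dup-Veh. With surrogate variables in the model the unadjusted p in limma was 0.0309 in WT-THC against WT-Veh (-0.41 on the log2 scale) and 0.0055 in 16p11dup-Veh against WT-Veh (-0.58).

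Fcgrt, the IgG recycling receptor, had the widest fold range among the 5 genes with reads in every library. It was at 2.01, 138, 118 and 46.2 CPM in 16p11dup-THC, 61.7, 67.2, 4.68 and 26.7 CPM in 16p11dup-Veh, and 11.7, 70.5, 96.2 and 20.2 CPM in WT-THC. In WT-Veh it ranged from 0.226 CPM, which was 2 reads, to 57.9 CPM with a median of 30.6 CPM. Each group thus spanned at least an 8.20-fold range, and no comparison reached an unadjusted p below 0.315 in limma. Its partner B2m was steadier, at 2747, 3935, 3519 and 2680.4 CPM in 16p11dup-THC against 3319, 1951, 4393 and 2083 CPM in 16p11dup-Veh. The 2 groups overlapped, and the mean log2 CPM of B2m was 11.63 in 16p11dup-THC and 11.44 in 16p11dup-Veh. The log2 fold change of B2m fitted with voom weights and the covariate was larger than these means give. It was 0.59 (SE 0.27, unadjusted p = 0.0428, adjusted p = 0.835 in limma) for that comparison.

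Over the 6 genes, no member passed the FDR of 0.10 in any of the 6 comparisons, and neither edgeR nor DESeq2 called any. The shares of all 22428 genes called were as low: 0.00446% (1 gene) each in 16p11dup-THC against WT-Veh, against WT-THC and against 16p11dup-Veh, 0.00892% in WT-THC against WT-Veh, and 0% in 16p11dup-Veh against WT-Veh and in the interaction. At an unadjusted p under 0.05 in limma, 2 of 6 members (Fcgr3 and Fcgr1, both higher) passed in 16p11dup-THC against 16p11dup-Veh, beside 5.12% of the 13964 genes with a read. 1 of 6 passed in 16p11dup-THC against WT-Veh (Fcgr3, higher; 5.63% of all genes) and 1 of 6 in 16p11dup-Veh against WT-Veh (Fcgr1, lower; 3.51%). In 16p11dup-THC against WT-THC (5.74%) and in WT-THC against WT-Veh (3.93%) 0 of 6 passed. edgeR counted 1, 1, 0, 0 and 0 of 6 members at an unadjusted p under 0.05 in these comparisons, and DESeq2 counted 2, 1, 0, 0 and 0. With shares of a few percent over all genes, counts of 1 or 2 among 6 members are no result about the members as a group.

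No member separated 2 groups completely in any comparison. Complete separation was seen for 2.33% of genes with a read in 16p11dup-THC against 16p11dup-Veh, 2.12% against WT-THC and 0.652% against WT-Veh. It was seen for 0.487% of genes in 16p11dup-Veh against WT-Veh and for 0.487% in WT-THC against WT-Veh. The median log2 fold change of the 6 members was 0.43 in 16p11dup-THC against 16p11dup-Veh, beside 0.086 over the 3302 abundant genes (mean of 5 or more on the log2 CPM scale, reads in all libraries) and 0.37 over the 11 microglial markers, close to that of the members. In the other comparisons of 2 groups it was between 0.056 and 0.20, beside -0.001 to 0.083 over the abundant genes and 0.003 to 0.31 over the microglial markers. Without Fcgr4, whose fold change depends on the added value, the median of the other 5 members was 0.49 in 16p11dup-THC against 16p11dup-Veh and between -0.25 and 0.36 in the other comparisons of 2 groups.

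The interaction asks whether THC had a different effect in 16p11dup than in WT microglia. Its log2 value, the THC difference in 16p11dup minus that in WT, was 0.91 (SE 0.41; unadjusted p = 0.0438 in limma) for Fcgr3 and 0.86 (SE 0.40; unadjusted p = 0.0473 in limma) for Fcer1g. Both had an adjusted p of 0.973 in limma, and 4.55% of genes with a read reached an unadjusted p under 0.05. Fcgr1 had 0.86 (SE 0.55), Fcgr2b -0.60 (SE 1.12) and Fcgrt -0.80 (SE 2.23). Under edgeR and under DESeq2 0 of 6 members had an unadjusted p under 0.05 for the interaction.

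**Figure D4:**
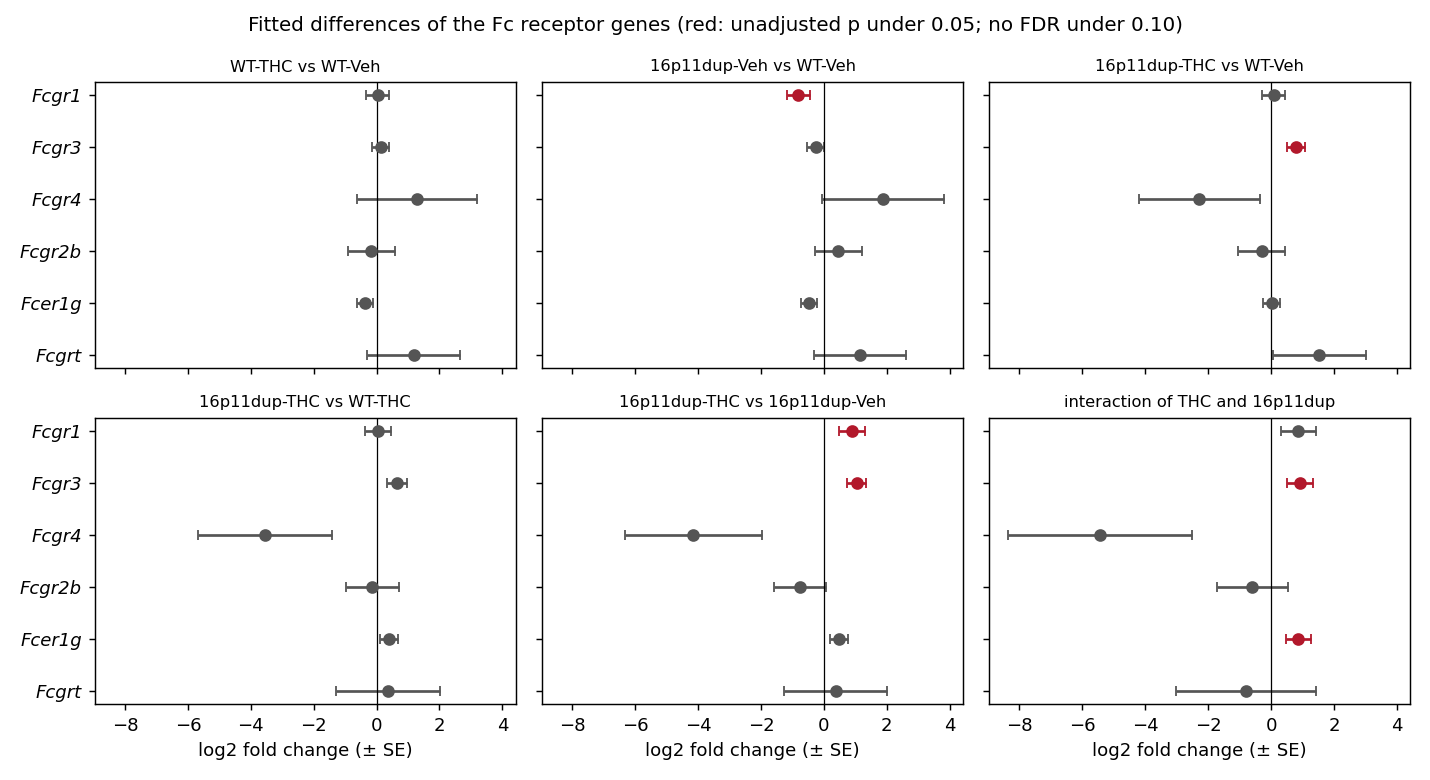
Log2 fold change (horizontal axis) with its SE for the 6 genes in the 5 comparisons of 2 groups and the interaction, from limma with the percentage of mapped reads as covariate. Red points have an unadjusted p under 0.05 (Fcgr3 and Fcgr1 in 16p11dup-THC against 16p11dup-Veh, Fcgr3 in 16p11dup-THC against WT-Veh, Fcgr1 in 16p11dup-Veh against WT-Veh, Fcgr3 and Fcer1g in the interaction), no gene had an FDR under 0.10, and the size of the Fcgr4 values depends on the amount added to a count of 0.

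The balance of activating to inhibitory receptor transcripts was described as the ratio of Fcgr1, Fcgr3 and Fcgr4 together to Fcgr2b, in CPM per kb within each library. The median ratio was 23.9 in 16p11dup-THC, 8.59 in 16p11dup-Veh, 14.4 in WT-THC and 12.7 in WT-Veh. Its range was 17.5 to 86.8 in 16p11dup-THC, 8.02 to 17.2 in 16p11dup-Veh, 10.7 to 81.7 in WT-THC and 8.53 to 59.7 in WT-Veh. The 4 16p11dup-THC libraries lay above the 4 16p11dup-Veh libraries by a narrow margin, 17.5 against 17.2 at the nearest. The ratio holds the reads divided between Fcgr2b and Fcgr3 in 3 libraries. It was also chosen with the values in view, so it is given as a description with no test. The highest ratio in 16p11dup-THC, WT-THC and WT-Veh belonged to the library with the low Fcgr2b level. Fcer1g exceeded the summed activating receptors per kb in all 18 libraries, with a ratio of 1.33 to 6.73 and a median of 2.41.

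**Figure D5:**
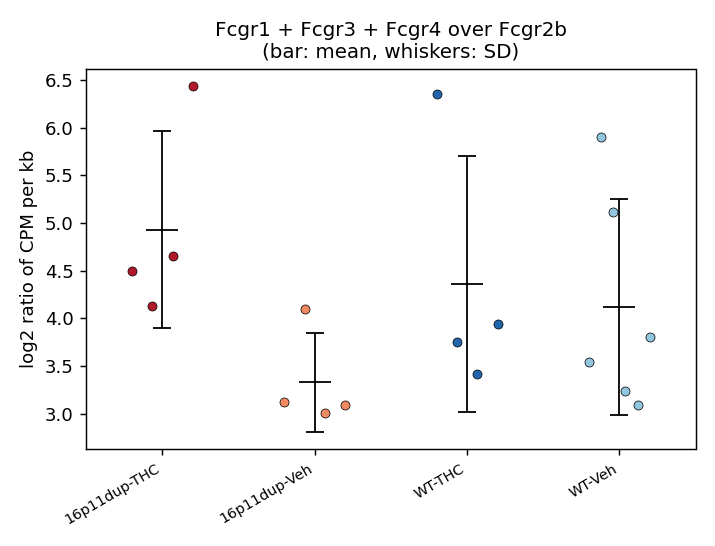
Ratio of Fcgr1, Fcgr3 and Fcgr4 together to Fcgr2b in each library, as the log2 of the ratio of CPM per kb (vertical axis), for 16p11dup-THC, 16p11dup-Veh, WT-THC and WT-Veh. Points are libraries, the bar is the mean and the whiskers the SD; the means are 4.93, 3.33, 4.36 and 4.11.

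No pair of members was shown to vary together across the libraries. Over the 15 pairs, Pearson's r of log2 CPM over the 18 libraries lay between -0.36 and 0.30, and the lowest permutation p after Benjamini-Hochberg adjustment over the 15 pairs was 0.803 for r and 0.693 for Spearman's rho. Fcgr1 and Fcgr3, the largest positive value (r = 0.30, permutation p = 0.229; rho = 0.14, permutation p = 0.581), had r = 0.12 without the 2 libraries farthest from the median of Fcgr1. Fcgr3 and Fcgr4 had the most negative value (r = -0.36, permutation p = 0.140; rho = -0.47, permutation p = 0.0497), and r = -0.092 on deviations from the group means. Fcgr4 had 0 reads in 6 of the 18 libraries. Among those libraries its values, and so their ranks, differ only through library size and the added 0.5. Fcgr3 and Fcer1g, a receptor and its chain, had r = 0.28 (permutation p = 0.268; rho = 0.12, permutation p = 0.637). Fcgr2b and Fcgr3, whose counts were divided in 3 of the 18 libraries, had r = 0.29 (permutation p = 0.244, rho = 0.37, permutation p = 0.135). On deviations from the group means their r was 0.57. The values on deviations were not tested. Fcgr1 also varied little for its level: its SD within groups, 0.58 on the log2 scale, was larger than for 3.48% of the 805 genes with a mean within 0.5 of its own.

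The genes whose log2 CPM was most like each member's over the 18 libraries were picked by Pearson's r among about 3300 abundant genes, as a description. For Fcer1g they were C1qc (r = 0.77), C1qb (0.76) and Sult1a1 (0.76), and the first 2 encode chains of the complement component C1q. For Fcgr3 they included Scai (0.70) and Trmt2a (0.70), and for Fcgr2b they were Arpc5 (0.79), Arsk (0.74) and Ptpn2 (0.73), of which Ptpn2 had 0.34 without the 2 libraries farthest from the mean of Fcgr2b. For Fcgr1 they were Hnrnpab (0.89), Ssfa2 (0.80) and Cpsf1 (0.75), of which Ssfa2 and Cpsf1 had 0.41 and 0.22 without the 2 libraries farthest from the mean of Fcgr1. For Fcgrt they were Zfp90 (0.83), Aim2 (0.81) and Sipa1l2 (0.75), and for Fcgr4 they were Tmem176b (0.75), Usp4 (0.72) and 4930594C11Rik (0.72). The values for Fcgr4 rest in part on libraries near 0, since 8 of the 18 held at most 3 of its reads. With 3300 genes and 18 libraries that differ in depth, values of this size are the top of a long list. Depending on the member, 2.5% of these genes exceeded 0.45 to 0.54.

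Of 12 other Fc receptor genes, 11 were in the table and 5 had reads. Fcrls, an Fc receptor-like gene typical of mouse microglia, was as steady as it was abundant, at 1835 ± 429 CPM (SD, n = 18). It was at 1849, 2114, 2927 and 1583 CPM in 16p11dup-THC, against a range of 1235 to 2212 CPM in WT-Veh, and differed by 0.45 on the log2 scale (SE 0.21; unadjusted p = 0.0498, adjusted p = 0.814 in limma). Trim21, which encodes an antibody receptor of the cytosol, was at 45.8 ± 44.9 CPM (SD, n = 18). Fcrl1, known from B cells, ranged from 1.59 to 682 CPM, while Fcer1a, Fcer2a, Fcrl5, Fcrla, Fcamr and Pigr were at 0 in all 18 libraries.

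Downstream of the receptors, 37 genes of Fc receptor signalling all had reads, 31 of them in every library. Among them Lyn, the Src-family kinase that phosphorylates the gamma chain, was at 777 ± 361 CPM, Inpp5d at 726 ± 303 CPM, Rac1, a GTPase of actin remodelling, at 861 ± 347 CPM, Vav1, a guanine nucleotide exchange factor, at 244 ± 175 CPM and Syk at 204 ± 185 CPM (SD, n = 18). None passed the FDR of 0.10 in any comparison. At an unadjusted p under 0.05, 1 of 37 was lower and 0 higher in 16p11dup-THC against 16p11dup-Veh (5.12% of genes with a read in either direction), 1 was lower and 0 higher in 16p11dup-THC against WT-Veh (5.63%), and 3 were lower and 0 higher in 16p11dup-THC against WT-THC (5.74%). In 16p11dup-Veh against WT-Veh (3.51%) and in WT-THC against WT-Veh (3.93%) 1 of 37 was higher and 0 lower. These counts are near the shares over all genes and are no result about the list. The median log2 fold change of the 37 genes was -0.080 in 16p11dup-THC against 16p11dup-Veh and between -0.15 and 0.003 in the other comparisons of 2 groups.

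Myo1e, a class I myosin of phagocytic cups, was the signalling gene with the smallest unadjusted p. It was at 0.267, 1.66, 0.551 and 0.109 CPM in 16p11dup-THC, against 128, 7.62, 4.55 and 83.4 CPM in 16p11dup-Veh and 64.9, 18.1, 17.0025 and 42.4 CPM in WT-THC. In WT-Veh it ranged from 0 to 22.3 CPM. The 16p11dup-THC libraries were below all 16p11dup-Veh and all WT-THC libraries, a separation that 2.33% and 2.12% of genes with a read showed in either direction in these comparisons, and the gene was singled out from 37 by its p. The interaction had a log2 value of -9.79 (SE 2.10; unadjusted p = 0.00031, adjusted p = 0.973 in limma), which rests on values near 0. Fyn, a Src-family kinase, and Grb2, an adaptor, were the other signalling genes with an unadjusted p under 0.05. Fyn was at 0, 0, 0.276 and 0.109 CPM in 16p11dup-THC, against 82.1, 4.19, 1.06 and 7.59 CPM in WT-THC. This separation, too, is one that 2.12% of genes with a read showed. In 16p11dup-Veh Fyn was at 0, 12.5, 0 and 0 CPM, and in WT-Veh it ranged from 0 to 54.1 CPM. Its log2 fold change was -6.06 (SE 2.31, unadjusted p = 0.0195, adjusted p = 0.967 in limma) in 16p11dup-THC against WT-THC. Against WT-Veh it was -4.53 (SE 2.09, unadjusted p = 0.0469, adjusted p = 0.814 in limma). Both rest on values near 0. Grb2 was at 35.2, 143, 11.9 and 42.0 CPM in 16p11dup-THC, against 55.1, 220.5, 282 and 191 CPM in WT-THC, a difference of -2.20 on the log2 scale (SE 0.91; unadjusted p = 0.0286, adjusted p = 0.967 in limma). In 16p11dup-Veh Grb2 was at 27.1, 57.3, 205 and 52.1 CPM, and in WT-Veh it ranged from 26.7 to 450 CPM.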

How the data were processed

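Microglia of 4 groups were sequenced as bulk RNA in 18 libraries. Libraries were aligned to GRCm38/mm10 and quantified by the authors with RSEM 1.3.0, which gives expected counts; 4 outlier libraries of the study were not analysed here. The deposited expression values are log2 CPM, scaled by the authors with factors of 0.735 to 1.305 and with 0.5 added to each count. The kit is named as Smart-seq2 in one place of the study and as Nugen Ovation in another. A second deposited table holds read counts by category, fractions of mapped, exonic and intronic reads, surrogate variables as scores, and a further ribosomal RNA column that was not used. The fractions deposited by the authors supplied the covariate, the scores deposited by the authors supplied the 5 surrogate variables.

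Since the lowest value of a library marks a count of 0, counts were recovered, and 94.4% of the nonzero ones were whole within 0.01. The main fit used limma 3.58.1 on the deposited log2 CPM with voom weights computed without the design, the 4 groups and the share of mapped reads as covariate, Benjamini-Hochberg adjustment over 22428 genes and an FDR of 0.10. As alternatives, the recovered counts were rounded and fitted with DESeq2 1.42.0 and edgeR 4.0.16, and the main fit was repeated with other weights, scalings, offsets, filters, covariates and sample sets. Fitting code was tested on simulated data. Exact permutation tests were planned for members with an unadjusted p under 0.05 and then run for all 30 combinations of a member and 2 groups, and correlations used 100000 resamples. All 6 members were fitted in each comparison, and not every fitted value is given in words. Of the other Fc receptor and signalling genes, those with an unadjusted p under 0.05 were named (at most 6 per comparison), with a few more given for their level, and for each member the 3 genes of highest r were named, but a gene of highest r for Fcgr3 and a B cell marker are not reported here. The members and gene lists were chosen with earlier results of these data known. Lengths and sequences came from GENCODE M21.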

Additional observations from a re-analysis of the deposited data

Results flagged for a closer look

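Of 24 combinations of a gene and a group, 2 held a library that stood apart from the rest of its group by Dixon's criterion, which chance alone meets in about 1 of 20 groups. Fcgr2b in 16p11dup-THC replicate 4 had a log2 CPM of 4.67, while the other 3 libraries of that group lay between 7.64 and 7.80. Fcgr4 in 16p11dup-THC replicate 3 had a log2 CPM of 0.08, which was 11 reads, while the other 3 libraries had 0 reads, at -4.44 to -3.90. Libraries with 0 reads differ only through library size and the added 0.5, so this gap is not set against any measured spread. No member's interaction of THC and 16p11dup passed the FDR of 0.10.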

How the results depend on the processing

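No member was called at an FDR under 0.10 in any comparison under any of the alternatives; the lowest adjusted p was 0.132, for Fcgr3 in 16p11dup-THC against 16p11dup-Veh under DESeq2. Of the 36 fitted differences, 22 kept their direction under every alternative. In 16p11dup-THC against 16p11dup-Veh the number of members at an unadjusted p under 0.05, 2 in the fit reported, was 1 under edgeR, without voom weights, with library size without scaling factors or without Rn45s, with a count in at least 4 libraries and with only the 2 groups compared, 0 with surrogate variables, 3 without covariate, and 1 to 2 with each replicate left out. In 16p11dup-THC against WT-Veh it was 1, and 0 with surrogate variables and 0 to 1 with each replicate left out. In 16p11dup-THC against WT-THC it was 0, and 1 with an offset of 2 counts, without covariate and without the 3 libraries with divided counts, and 0 to 2 with each replicate left out. In 16p11dup-Veh against WT-Veh it was 1, and 0 under edgeR, under DESeq2, without voom weights, with either other library size, with a count in at least 4 libraries, with only the 2 groups compared and without the 3 libraries with divided counts, and 0 to 1 with each replicate left out. In WT-THC against WT-Veh it was 0, and 1 with surrogate variables. For the interaction it was 2, and 0 under edgeR, under DESeq2 and without voom weights, 1 with voom weights with the design, with either other library size, with a count in at least 4 libraries and with surrogate variables, and 0 to 3 with each replicate left out. A fit of the interaction with only 2 groups could not be made. The other scalings moved the median of the abundant genes by -0.152 to 0.115 on the log2 scale over the comparisons, with -0.147 under edgeR and -0.152 under DESeq2 in WT-THC against WT-Veh. The causes were not tested. No paired analysis was possible because the labels give no replicate numbers, and those used here only name libraries. For Fcgr4, 8 of the 18 libraries held at most 3 reads, which limits what could be seen.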
